A study of Mus musculus with 24 samples.

Results

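Immortalized mouse fibroblasts were compared with senescent fibroblasts of the same origin, both under vehicle, across every gene of the deposited RNA-seq table. The comparison set the 3 immortalized DMSO libraries against the 3 senescent DMSO libraries, which are 6 of the 24 libraries of the series. It covered 13489 of 19880 genes, those with 1 TPM (transcript per 1000000) or more in at least 3 of the 24 libraries. The study made 4 cell-states from 1 pool of fibroblasts, taken from the tails of 3 male C57Bl/6J mice aged 4 weeks, and exposed each to 0.1% DMSO or to 10 µM of the proteasome inhibitor MG132 for 8 h before poly(A) RNA was sequenced. Immortalized cells had been transduced at low passage with a retrovirus carrying the SV40 T antigen, were passaged until T antigen staining found the cultures pure, and were used up to passage 10. Senescent cells had been replated at 10% confluence until cultures stopped expanding, and were then held for at least 7 days. Proliferating (subconfluent) and quiescent (contact-inhibited) cells of the pool, with 3 DMSO libraries each, are given where they place a level. Whether the libraries of a cell-state stem from separate cultures is not stated in the labels, and the tests rest on the spread among these libraries alone. T antigen transcripts were not analysed here.

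Replicative senescence is a stable exit from the cell cycle that follows extended growth in culture. It is held by the tumour suppressor p53, which switches on the CDK inhibitor p21 (Cdkn1a), and by the retinoblastoma protein RB, which is kept active by p16 (Cdkn2a) and represses the E2F factors. The SV40 large T antigen binds both p53 and RB, which disables the inhibitors of the E2F program and lets cells divide without limit. Senescent cells are also known for a secretome of cytokines, proteases and growth factor binding proteins, for enlarged lysosomes with β-galactosidase activity, and for the loss of lamin B1.

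Sequences upstream of a gene from each of the main groups are shown because 4 groups of genes that moved together carry known promoter motifs. The windows are 250 bases ending at the RefSeq start in GRCm38.p6, read along the gene, and capitals mark the motifs. In Ube2c (chr2:164769679-164769928, plus strand), a ubiquitin-conjugating enzyme of the anaphase-promoting complex, capitals mark CCAAT boxes (CCAAT or ATTGG) and the cell cycle homology region (CHR, TTTGAA or TTCGAA, here on the opposite strand as TTCAAA). In Mcm5 (chr8:75109259-75109508, plus strand), a subunit of the replicative helicase, they mark 2 overlapping E2F sites and CCAAT boxes. In Isg15 (chr4:156200819-156201068, minus strand), a ubiquitin-like interferon-induced protein, they mark 3 overlapping matches to the interferon-stimulated response element (ISRE, GAAA-NN-GAAA). In Ctsd (chr7:142387828-142388077, minus strand), the lysosomal protease cathepsin D, they mark the CLEAR element of lysosomal genes (TCACGTGA).
Ube2c: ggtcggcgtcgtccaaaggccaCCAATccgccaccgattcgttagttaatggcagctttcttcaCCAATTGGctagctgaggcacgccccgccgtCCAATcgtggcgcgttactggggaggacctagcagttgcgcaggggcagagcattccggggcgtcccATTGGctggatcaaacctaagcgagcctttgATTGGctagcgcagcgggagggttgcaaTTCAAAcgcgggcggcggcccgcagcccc
Mcm5: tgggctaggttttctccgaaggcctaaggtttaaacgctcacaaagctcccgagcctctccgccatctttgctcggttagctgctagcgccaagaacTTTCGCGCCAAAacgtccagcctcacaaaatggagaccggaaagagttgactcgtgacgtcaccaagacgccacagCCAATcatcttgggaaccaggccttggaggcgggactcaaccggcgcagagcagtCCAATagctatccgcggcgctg
Isg15: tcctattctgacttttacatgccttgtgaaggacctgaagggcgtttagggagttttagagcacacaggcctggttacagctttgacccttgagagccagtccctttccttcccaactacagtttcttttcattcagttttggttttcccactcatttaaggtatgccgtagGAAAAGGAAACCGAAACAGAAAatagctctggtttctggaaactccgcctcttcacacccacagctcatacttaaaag
Ctsd: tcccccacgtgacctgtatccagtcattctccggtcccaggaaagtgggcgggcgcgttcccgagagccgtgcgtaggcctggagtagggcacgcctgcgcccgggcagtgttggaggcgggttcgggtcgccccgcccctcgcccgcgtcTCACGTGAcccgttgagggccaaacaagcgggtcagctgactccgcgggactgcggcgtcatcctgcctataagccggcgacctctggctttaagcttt

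Motifs were searched on both strands from 250 bases before to 50 after each start. The CHR was present in 79.5% of 44 windows of mitosis and G2/M genes, against 19.2% of 32851 windows of all promoters, and the CCAAT box in 75% against 37.4%. An E2F site (TTTGGCGC, TTTCCCGC, TTTGCCGC or TTTCGCGC) was present in 35.6% of 45 windows of replication genes, against 2.26% of all. The ISRE was found in 52.9% of 34 windows of interferon-stimulated genes, against 3.44% of all, and the CLEAR element in 13.6% of 44 windows of lysosomal genes, against 0.974% of all. These are matches of letters and no measure of binding. They were counted over tested list members whether or not a gene was called, so they do not bear on the differences in level. The mitosis, replication, interferon and lysosomal lists had 41, 39, 31 and 38 of their 50, 49, 41 and 49 tested genes in the promoter table.

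The libraries kept their groups apart, with 1 library on each side that lay off its group. Spearman correlations over the tested genes ran from 0.973 to 0.993 within immortalized libraries, from 0.961 to 0.989 within senescent libraries and from 0.789 to 0.939 between the cell-states. Senescent replicate 1 was nearer to the immortalized libraries (0.882 to 0.939) than senescent replicates 2 and 3 (0.806 to 0.881 and 0.789 to 0.868), and it had the highest mean level of cell cycle genes among senescent libraries. Immortalized replicate 2 was the farthest from the senescent libraries (0.789 to 0.882) and had the highest cell cycle levels of all. Counts are therefore also given without this pair of libraries. Each library sums to the same total, so sequencing depth is unknown, and between 16751 and 18161 genes were above 0 TPM per library. Thy1, a fibroblast surface protein, was at 595, 527 and 563 TPM in immortalized and 563, 503 and 517 TPM in senescent libraries. It was named after its values were seen. Of 26 dermal fibroblast identity genes 16 were lower and 3 higher in immortalized cells, against 30.8% and 29.3% over all genes. The posterior homeobox gene Hoxb13 was at 38.3, 21.99 and 32.7 TPM in immortalized and 70.2, 83.9 and 76.6 TPM in senescent libraries. The 12 macrophage markers summed to 13.1 to 26.2 TPM in immortalized and 25.9 to 40.8 TPM in senescent libraries, and 8 of them were under 1 TPM in all 6. Endothelial markers summed to 13.9 to 32.8 TPM and 30.0 to 40.5 TPM, and keratinocyte and epithelial markers to 6.30 to 11.1 TPM and 40.3 to 60.9 TPM. The member with the highest senescent level was Perp, which is also a p53 target (26.3, 36.1 and 29.9 TPM). Of the 7 tested members 2 were lower, 1 was higher and 4 were not called, against 30.8% lower and 29.3% higher over all genes. Pericyte markers, which fibroblasts share in part, summed to 95.6 to 146 TPM in immortalized and 175 to 394 TPM in senescent libraries. Skeletal muscle markers, mainly the actin gene Acta1, went the other way (137 to 325 TPM and 33.4 to 88.1 TPM). Adipocyte (9.01 to 15.1 TPM and 15.6 to 38.3 TPM), bone and cartilage (38.1 to 54.6 TPM and 40.7 to 70.3 TPM) and Schwann cell markers (7.51 to 10.6 TPM and 14.4 to 20.9 TPM) were low in both. The keratinocyte gene Krt14 was at most 0.229 TPM and the leukocyte gene Ptprc at most 0.0269 TPM in the 6 libraries. The part of other cell types in the results was not tested. Of 12 housekeeping genes 8 were called higher and 1 lower, with a median of 0.36. The number higher was 3 with the per-1000000 scaling undone, 5 without senescent replicate 2 or immortalized replicate 1, and 4 without senescent replicate 3.

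Most genes differed between the cell-states. Of the 13489 genes, 3952 (29.3%) were higher and 4153 (30.8%) were lower in immortalized than in senescent fibroblasts (limma, adjusted p under 0.05), 60.1% in all. With the final scaling of each library to 1000000 undone, 3000 were higher and 4817 lower. Differences are on the scale of log2(scaled TPM + 1), with libraries scaled to each other by median-of-ratios factors, so they are relative to the typical gene and understate the change of weakly expressed genes. The median difference of all genes was -0.01 on this scale. Of the called genes 3237 were past 1 log2 unit and 905 past 2, of which 381 were higher and 524 lower in immortalized cells. Past 3 log2 units there were 142 and 195. Libraries did not overlap between the groups for 27.3% of genes in the higher direction and 31.9% in the lower. Without senescent replicate 1 and immortalized replicate 2, 3475 of the 3952 and 3603 of the 4153 genes were again called in the same direction.

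**Figure D1:**
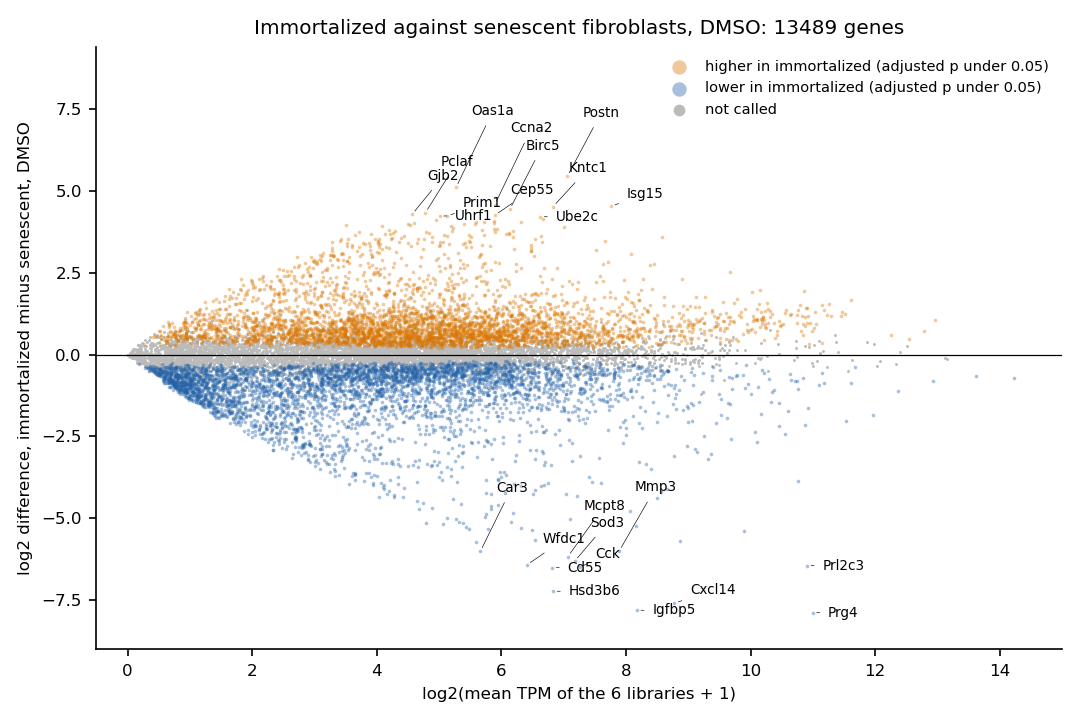
Each point is 1 of 13489 genes, with log2 of its mean TPM over the 6 libraries plus 1 on the x axis and the log2 difference (immortalized minus senescent, DMSO) on the y axis. The 3952 genes called higher are orange, the 4153 called lower are blue, and the 24 leading genes are named, from Postn at 5.44 to Prg4 at -7.88.

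Of the 12 genes with the largest falls, 9 are known to encode secreted proteins. Prg4, the joint lubricant lubricin, was at 15.5, 3.24 and 23.1 TPM in the immortalized libraries, against 879, 4569.7 and 6754 TPM in the senescent libraries. Igfbp5, a secreted binder of insulin-like growth factors, was at 0.779, 0.289 and 1.73 TPM in the immortalized libraries, against 171, 643 and 911 TPM in the senescent libraries. In both genes the highest immortalized library lay far under the lowest senescent library, which was replicate 1. Prg4 had a log2 difference of -7.88 ± 0.66 (SE) and an adjusted p of 1.3e-08, and Igfbp5 had a log2 difference of -7.81 ± 0.46 (SE) and an adjusted p of 1.1e-10 (limma). The chemokine Cxcl14 was at 4.87, 0.282 and 2.62 TPM in the immortalized libraries, against 176, 1114 and 1331 TPM in the senescent libraries. Hsd3b6, a steroid dehydrogenase, was at 0.132, 0 and 0.417 TPM in the immortalized libraries, against 102, 264 and 309.7 TPM in the senescent libraries. Its immortalized libraries were all under 0.5 TPM and its senescent libraries all above 100 TPM, while the proliferating libraries averaged 0.185 ± 0.153 TPM (SD, n = 3). The log2 difference was -7.60 for Cxcl14 and -7.23 for Hsd3b6. Cd55, which protects cells from complement, was at 0.501, 0 and 1.41 TPM in the immortalized libraries, against 43.1, 228 and 396 TPM in the senescent libraries. Prl2c3, a proliferin of the prolactin family, was at 41.3, 11.5 and 66.7 TPM in the immortalized libraries, against 1353, 2985 and 7043 TPM in the senescent libraries. Proliferating libraries held 18.6 ± 15.9 TPM of Prl2c3, so its high level was that of the senescent libraries. It is one of several near-identical proliferin genes, and how reads were divided among them is uncertain. The other genes among the 12 with the largest falls were Cck (cholecystokinin, -6.49), Wfdc1 (-6.43), Sod3 (extracellular superoxide dismutase, -6.31), Mcpt8 (a serine protease of basophils, -6.17), Car3 (carbonic anhydrase, -6.02) and Mmp3 (stromelysin, -6.01). Genes with overlapping groups could not enter these 12. Several had an immortalized library listed at 0 TPM, so the size of their difference depends on the pseudocount.

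The 12 genes with the largest rises included genes of cell division, of the interferon response and of the matrix. Postn, the matricellular protein periostin, was at 123, 447 and 209.6 TPM in the immortalized libraries, against 6.03, 2.72 and 4.76 TPM in the senescent libraries. It had a log2 difference of 5.44 ± 0.45 (SE) and an adjusted p of 9.1e-09 (limma), and the groups were far apart. Oas1a, an interferon-induced sensor of double-stranded RNA, was at 28.4, 130.1 and 65.1 TPM in the immortalized libraries, against 1.54, 0.246 and 0.683 TPM in the senescent libraries. Isg15 was at 240.4, 611 and 391 TPM in the immortalized libraries, against 31.6, 11.2 and 12.5 TPM in the senescent libraries. In Oas1a and Isg15 immortalized replicate 2 was the highest library, and the log2 differences were 5.11 and 4.53. Ccna2, the cyclin of S phase and mitotic entry, was at 49.97, 259 and 33.0 TPM in the immortalized libraries, against 6.24, 1.56 and 0.695 TPM in the senescent libraries. Birc5, the survivin subunit of the chromosomal passenger complex, was at 92.9, 241 and 64.2 TPM in the immortalized libraries, against 13.1, 2.45 and 2.08 TPM in the senescent libraries. Immortalized replicate 2 was again highest, and the highest senescent library, replicate 1, stayed under every immortalized library in both genes. Uhrf1, which recruits the maintenance DNA methyltransferase, was at 33.8, 123 and 25.5 TPM in the immortalized libraries, against 3.24, 1.099 and 0.79 TPM in the senescent libraries. Ube2c and Prim1, the small primase subunit, had log2 differences of 4.21 and 4.23. Kntc1 (a kinetochore checkpoint protein, 4.52), Pclaf (a PCNA-associated factor, 4.33), Cep55 (a factor of cytokinesis, 4.26) and Gjb2 (connexin 26, 4.29) made up the rest of the 12.

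**Figure D2:**
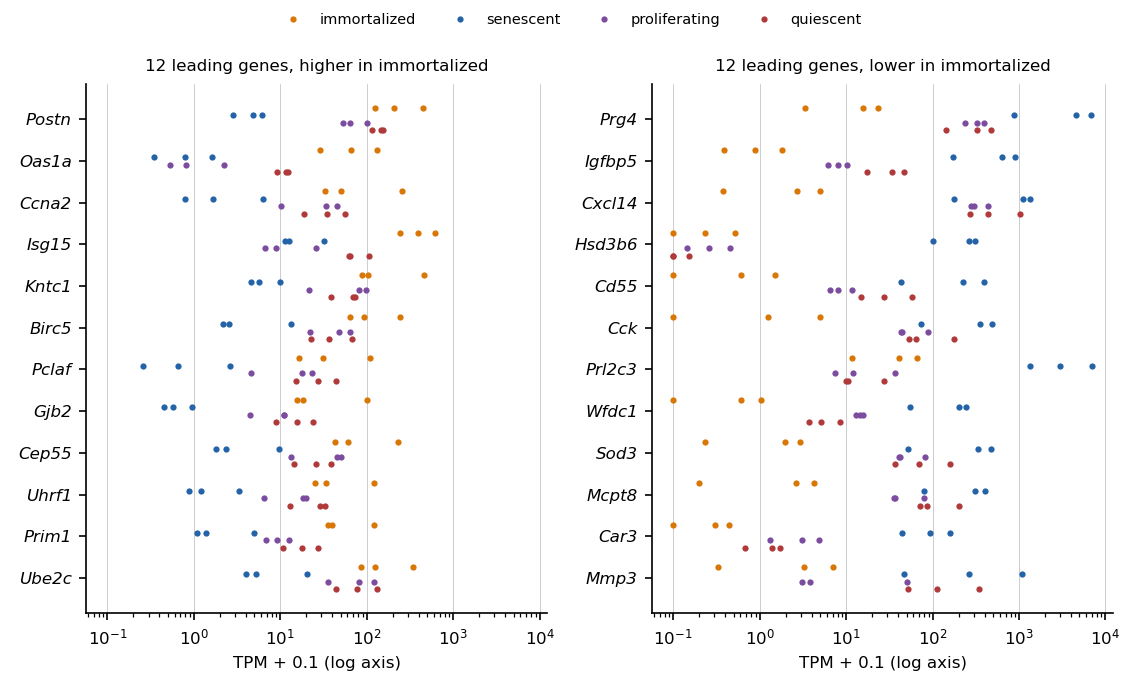
TPM plus 0.1 on a log axis for the 12 genes with the largest rises (left panel) and the 12 with the largest falls (right panel), each point 1 DMSO library of immortalized, senescent, proliferating or quiescent cells (3 each). Genes were chosen among those whose immortalized and senescent libraries do not overlap. Hsd3b6 and Prl2c3 are high in senescent libraries alone among the 4 cell-states shown.

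Cell division genes were higher in immortalized fibroblasts almost without exception. All 49 tested DNA replication and S phase genes were higher, with a median log2 difference of 2.56. Of 50 mitosis and G2/M genes 49 were higher and none was lower, with a median of 3.42, and 22 of 24 genes of replication-linked chromatin and the nuclear envelope were higher with a median of 1.73. Among DNA repair and Fanconi genes 31 of 32 were higher (median 1.96), and among nucleotide synthesis genes 19 of 20 (median 1.40). These shares stand beside 29.3% higher over all genes. Mki67, the proliferation antigen Ki-67, was at 14.7, 77.4 and 10.1 TPM in the immortalized libraries, against 1.56, 0.615 and 0.375 TPM in the senescent libraries. Mcm5 was at 53.8, 136 and 46.5 TPM in the immortalized libraries, against 6.77, 3.31 and 1.68 TPM in the senescent libraries. Both genes had 1 immortalized library, replicate 2, well above the other immortalized libraries, and 1 senescent library, replicate 1, above the other senescent libraries. The differences were 3.68 ± 0.67 for Mki67 and 4.00 ± 0.43 for Mcm5 (log2, SE), with adjusted p-values of 1.0e-04 and 2.8e-07 (limma). Rrm1, the large subunit of ribonucleotide reductase, had 106, 269 and 102 TPM in immortalized and 26.6, 14.0 and 10.1 TPM in senescent libraries. Tk1, the S phase thymidine kinase, had 47.3, 97.1 and 27.6 TPM in immortalized and 4.58, 1.72 and 0.656 TPM in senescent libraries. The Fanconi gene Fanci had a log2 difference of 3.72. Lmnb1, the lamin whose loss marks senescence, was at 30.0, 64.9 and 25.4 TPM in the immortalized libraries, against 9.02, 4.84 and 4.32 TPM in the senescent libraries. Hmgb2, a chromatin protein that is also lost in senescence, was at 63.5, 179 and 54.0 TPM in the immortalized libraries, against 10.2, 3.09 and 2.16 TPM in the senescent libraries. The groups did not overlap in either gene, with log2 differences of 2.52 and 4.06. In a bulk culture, fewer dividing cells and less RNA of these genes per cell cannot be told apart. Without senescent replicate 1 and immortalized replicate 2, the medians were 2.38 for replication and 3.09 for mitosis, with 49 of 49 and 49 of 50 genes higher.

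The regulators that hold the cell cycle did not all move one way. Of 15 CDK inhibitors, D cyclins, their kinases and pocket proteins, 5 were higher and 8 lower in immortalized cells, against 29.3% and 30.8% over all genes. Cdkn1a was at 468, 311 and 452 TPM in the immortalized libraries, against 1021, 1313 and 1319 TPM in the senescent libraries. Cdkn2b, which encodes the CDK4 and CDK6 inhibitor p15, was at 38.2, 22.8 and 31.8 TPM in the immortalized libraries, against 163, 182 and 165 TPM in the senescent libraries. Both were lower in every immortalized library, with log2 differences of -1.50 and -2.37 (adjusted p = 5.9e-08 and 1.1e-10, limma). Cdkn2a was at 289, 306 and 265 TPM in the immortalized libraries, against 819, 509 and 470.3 TPM in the senescent libraries, and at 110.4 ± 4.92 TPM in proliferating libraries (SD, n = 3). Its immortalized levels thus lay between the proliferating and the senescent levels, with a log2 difference of -0.94 ± 0.19 (SE) and an adjusted p of 3.2e-04 against senescent cells. One gene-level value covers both p16 and p19ARF. Cdkn2c, encoding p18, went the other way with 9.34, 20.1 and 10.2 TPM in the immortalized libraries, against 0.698, 0.688 and 0.868 TPM in the senescent libraries. The pocket protein gene Rbl1 (p107), an E2F target, was higher as well (2.36). Rb1 itself had 62.9, 90.5 and 70.8 TPM in immortalized and 95.4, 92.9 and 99.4 TPM in senescent libraries, which did not pass the test (log2 difference -0.29 ± 0.20 (SE), adjusted p = 0.23), although it was called lower with array weights (adjusted p = 0.0054). Trp53, which encodes p53, had 186, 188 and 186 TPM in immortalized and 127, 122 and 119.8 TPM in senescent libraries and was higher by 0.68 ± 0.09 (log2, SE).

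Target genes of p53 were more often lower than higher in immortalized fibroblasts. Of 42 tested, 24 were lower and 4 higher, with a median of -0.90, against 30.8% lower over all genes. Pmaip1, the death activator Noxa, was at 13.4, 9.67 and 14.0 TPM in the immortalized libraries, against 109.9, 133 and 160.3 TPM in the senescent libraries. Perp, a p53-induced membrane protein that epithelia also use in desmosomes, was at 0.61, 0.677 and 1.30 TPM in the immortalized libraries, against 26.3, 36.1 and 29.9 TPM in the senescent libraries. In both the immortalized level was near the proliferating mean (10.3 ± 1.62 and 0.442 ± 0.29 TPM) and the senescent libraries stood above it. The differences were -3.25 ± 0.16 and -3.94 ± 0.19 (log2, SE). Over the 42 genes, 22 were lower and 6 higher in immortalized than in proliferating cells (median -0.40), against 17.7% and 18% of all genes. In senescent cells 16 were higher and 5 lower than in proliferating cells (median 0.25), against 21% and 19.8%. Mdm2, the ligase that degrades p53 and is named here after its values were seen, had 97.8, 91.0 and 100.4 TPM in immortalized and 185, 228 and 225 TPM in senescent libraries. Of the 4 members that were higher, Ckap2, a mitotic spindle protein, had the largest difference (2.73), and Trp53 is another. The BCL2 family and death receptor list had 16 lower and 5 higher of 33. Tnfrsf1b, a receptor of tumour necrosis factor, was lower (-1.75), while Mlkl, the pore-forming effector of necroptosis, and Bok were higher (1.22 and 1.01). Without senescent replicate 1 the number higher was 8.

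Interferon-stimulated genes were high in immortalized fibroblasts. Of 41 tested antiviral genes, 38 were higher than in senescent cells and 1, the GTPase gene Gbp2, was lower (-0.37), with a median of 2.16. Over all genes 29.3% were higher and 30.8% lower in this comparison. The call of Gbp2 was lost without any 1 of senescent replicates 2 and 3 and immortalized replicates 2 and 3 (adjusted p = 0.051 to 0.29). The summed level of the antiviral genes was 0.32 ± 0.10% of all TPM in immortalized and 0.060 ± 0.013% in senescent libraries (SD, n = 3). The mean log2 level of the list was 4.43, 5.48 and 4.89 in immortalized libraries, against 3.02, 2.37 and 2.74 in senescent libraries. It was 2.11, 2.08 and 2.70 in proliferating and 3.76, 3.98 and 3.86 in quiescent libraries, so the immortalized libraries were the highest of the 4 cell-states. Against proliferating cells, 38 of the 41 were higher in immortalized cells (median 2.44) and 8 in senescent cells (median 0.32). Over all genes 18% were higher and 17.7% lower in immortalized than in proliferating cells (35.7% in all), and 21% higher and 19.8% lower in senescent than in proliferating cells (40.8% in all). These comparisons share libraries with the one between immortalized and senescent cells. Among MHC class I presentation genes 13 of 21 were higher and 4 lower in immortalized than in senescent cells. Nlrc5, the transactivator of class I genes, was at 66.7, 149 and 113 TPM in the immortalized libraries, against 6.35, 5.58 and 10.2 TPM in the senescent libraries. The class I gene H2-Q4 was at 23.6, 50.6 and 47.4 TPM in the immortalized libraries, against 3.46, 2.28 and 2.54 TPM in the senescent libraries. Both rose without overlap (3.74 and 3.42 log2), but the peptide transporter gene Tap2 and H2-T23 were lower (-1.53 and -1.28). H2-Q4 and H2-T23 belong to a family of similar genes, among which reads may have been divided. Of 14 nucleic acid sensors and adaptors, 9 were higher and 3 lower, with 1 lower without senescent replicate 3 or without immortalized replicate 2. Samhd1, a dNTP hydrolase, rose by 2.04 and the DNA sensor gene Ifi203 by 2.02, and Mavs, the adaptor of RNA sensing, was lower by a small margin (-0.54).

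Genes of the senescence-associated secretome were mostly lower in immortalized cells, with named exceptions. Of 49 tested secreted factors, 30 were lower and 6 higher (median -1.39), and of 29 matrix proteases and inhibitors 19 were lower and 2 higher (median -1.40). Over all genes 30.8% were lower and 29.3% higher. Against proliferating cells, 25 secreted factors were lower and 5 higher in immortalized cells (median -0.75). In senescent cells 16 were higher and 7 lower than in proliferating cells (median 0.17). For proteases and inhibitors these medians were -0.96 and 0.88. Mmp3 was at 3.13, 0.229 and 6.93 TPM in the immortalized libraries, against 46.6, 265 and 1097 TPM in the senescent libraries. Mmp13, a collagenase, was at 1.48, 0.371 and 3.34 TPM in the immortalized libraries, against 8.60, 42.9 and 136 TPM in the senescent libraries. The senescent libraries differed widely among themselves, with replicate 1 lowest and replicate 3 highest in both genes. Serpine2, an inhibitor of serine proteases, was at 21.1, 5.20 and 23.8 TPM in the immortalized libraries, against 188, 596 and 768 TPM in the senescent libraries, with a log2 difference of -4.79 ± 0.53 (SE) and an adjusted p of 3.5e-07. The chemokines Cxcl10 and Ccl5 went the other way. Cxcl10 was at 10.6, 37.1 and 14.1 TPM in the immortalized libraries, against 0.211, 0 and 0.115 TPM in the senescent libraries. Ccl5 was at 15.4, 37.0 and 18.3 TPM in the immortalized libraries, against 1.77, 0.291 and 0.161 TPM in the senescent libraries. Both are also known to be induced by interferon, and their log2 differences were 3.96 and 3.74. Il6, named after its values were seen, was under 5 TPM in all 6 libraries, with 0.626, 0.0724 and 0.576 TPM in immortalized and 1.44, 4.34 and 3.99 TPM in senescent libraries. Adam12, a membrane metalloprotease, was 1 of the 2 higher proteases (2.25). Of 14 complement genes 8 were lower and 2 higher, with C2 at 2.39, 0.996 and 4.39 TPM in immortalized and 14.7, 46.4 and 68.6 TPM in senescent libraries.

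In the insulin-like growth factor (IGF) axis 12 of 16 genes were lower and 1 higher, and among Wnt and BMP ligands, antagonists and targets 23 of 31 were lower and 1 higher (medians -1.28 and -1.58). Igfbp3 was at 2.69, 0.375 and 3.99 TPM in the immortalized libraries, against 43.5, 160.3 and 323 TPM in the senescent libraries. Wnt9a, a Wnt ligand, was at 3.80, 3.16 and 4.01 TPM in the immortalized libraries, against 41.0, 59.0 and 51.2 TPM in the senescent libraries. Rspo3, an enhancer of Wnt signalling, was at 0.362, 0 and 0.535 TPM in the immortalized libraries, against 8.85, 40.0 and 52.4 TPM in the senescent libraries. The 3 genes differ in where the proliferating cells lay, at 18.5 ± 15.4 TPM for Igfbp3, 5.93 ± 1.46 TPM for Wnt9a and 16.8 ± 4.08 TPM for Rspo3 (SD, n = 3). They were close to the immortalized level for Wnt9a, lay between both groups for Igfbp3, and for Rspo3 lay inside the senescent range. The higher members were Igf2bp2, an RNA-binding protein, in the IGF axis (1.23) and Id2, a BMP target, in the Wnt and BMP list (0.66). Immediate early genes split, with 12 of 22 lower and 5 higher. The nuclear receptor gene Nr4a1 was at 8.61, 8.22 and 8.79 TPM in the immortalized libraries, against 106, 124 and 135 TPM in the senescent libraries. Myc, which drives growth, was at 211, 419.7 and 183 TPM in the immortalized libraries, against 125, 72.8 and 58.5 TPM in the senescent libraries. Nr4a1 fell by 3.58 and Myc rose by 1.71 on the log2 scale. Atf3 was higher (2.19) and Junb lower (-2.07). Of 17 ERK feedback genes 8 were lower and 4 higher, led by Dusp4, a phosphatase of ERK, and Spry1 (-2.30 and -2.18). None was called higher without senescent replicate 3, and 1 without immortalized replicate 2. Notch3 was at 0.604, 0.186 and 0.293 TPM in immortalized and 2.85, 8.92 and 12.3 TPM in senescent libraries, while the Hedgehog effector gene Gli3 was higher (1.02). Of the 12 Notch and Hedgehog genes 4 were lower and 2 higher, and 7 were lower with the per-1000000 scaling undone. Over all genes 30.8% were lower and 29.3% higher with the main scaling.

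The matrix genes moved in both directions. Of 37 elastic fibre, proteoglycan and glycoprotein genes 23 were lower and 6 higher (median -0.99). Prelp, a leucine-rich proteoglycan, was at 1.21, 0.183 and 3.19 TPM in the immortalized libraries, against 29.3, 213 and 307 TPM in the senescent libraries. Dcn, the proteoglycan decorin, was at 1.26, 0.141 and 1.01 TPM in the immortalized libraries, against 23.0, 105 and 193 TPM in the senescent libraries. Senescent replicate 1 was the lowest senescent library in both, and the immortalized libraries were under 4 TPM throughout. Dcn had a log2 difference of -5.34 ± 0.60 (SE) and an adjusted p of 4.6e-07. Ltbp1, a carrier of latent TGF-β, was higher (1.28), as was Postn. Collagen chains gave 5 higher, 7 lower and 11 without a call out of 23, against 29.3% higher and 30.8% lower over all genes. Col1a2, a chain of type I collagen, was at 3537, 3614 and 3652 TPM in the immortalized libraries, against 1099, 1508 and 1347 TPM in the senescent libraries. Col6a3 was at 120.1, 267 and 144 TPM in the immortalized libraries, against 23.9, 26.9 and 30.2 TPM in the senescent libraries. Both were higher in immortalized cells, yet proliferating libraries held more Col1a2 (6931 ± 1343 TPM, SD, n = 3) than either. Col4a5 and Col27a1 were lower (-1.39 and -1.81). In collagen processing 4 of 22 genes were higher and 9 lower, with a median of -0.05, of which Adamts2, which trims procollagen, rose (1.96) and the crosslinking oxidase gene Loxl2 fell (-2.01).

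Contractile genes were more often higher than lower in immortalized cells, and positional and identity genes more often lower. Of 25 myofibroblast and smooth muscle genes 15 were higher and 5 lower (median 0.82), against 29.3% and 30.8% over all genes. Tagln, an actin-binding protein of smooth muscle, was at 3208, 2992 and 2469 TPM in the immortalized libraries, against 1159, 745 and 572 TPM in the senescent libraries. Actg2, a smooth muscle actin, was at 699, 619.5 and 497 TPM in the immortalized libraries, against 119.6, 100.1 and 66.8 TPM in the senescent libraries. The proliferating libraries, at 3862 ± 966 TPM for Tagln and 1215 ± 477 TPM for Actg2 (SD, n = 3), averaged above the immortalized ones. Mylk, the myosin light chain kinase, was lower in immortalized cells (-2.12). Of 26 dermal fibroblast identity genes 16 were lower and 3 higher, with 1 higher without immortalized replicate 2 or with the per-1000000 scaling undone. Against proliferating cells, 5 of them were higher and 6 lower in immortalized cells (median 0.04). In senescent cells 15 were higher and 3 lower than in proliferating cells (median 0.65), against 21% and 19.8% over all genes. Dpt, encoding dermatopontin, was at 1.15, 0.383 and 2.61 TPM in the immortalized libraries, against 16.2, 28.2 and 67.3 TPM in the senescent libraries. Ly6a, the surface protein Sca-1, was at 222, 87.5 and 248 TPM in the immortalized libraries, against 779, 1034 and 1284 TPM in the senescent libraries. Crabp1, a retinoic acid carrier, rose with 427, 548 and 533 TPM in the immortalized libraries, against 185, 65.7 and 98.9 TPM in the senescent libraries. Pdgfra, a defining fibroblast receptor named after its values were seen, was at 5.71, 2.44 and 6.79 TPM in immortalized and 8.67, 21.2 and 36.6 TPM in senescent libraries. Among Hox genes 12 of 27 were lower and 2 higher (1 without senescent replicate 3, immortalized replicate 1 or immortalized replicate 3), with called differences from -2.07 for Hoxd8 to 0.75 for Hoxa9. Against proliferating cells, 4 Hox genes were higher and 3 lower in immortalized cells (median 0.14). In senescent cells 12 were higher and 1 lower than in proliferating cells (median 0.35). Of 24 imprinted genes 14 were lower and 2 higher in immortalized than in senescent cells. Dio3, which inactivates thyroid hormone, was at 1.05, 0.285 and 0.971 TPM in the immortalized libraries, against 38.4, 109 and 113 TPM in the senescent libraries, and Grb10 and Mest were the higher members (1.12 and 1.204). The quiescent libraries held 268 ± 89.2 TPM of Dio3.

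Genes for making proteins were higher in immortalized than in senescent fibroblasts. Of 50 ribosomal protein genes 48 were higher and none lower (median 1.11), and of 34 genes of ribosome biogenesis 33 were higher (median 1.27). Over all genes 29.3% were higher and 30.8% lower. No ribosomal protein gene was called between immortalized and proliferating cells (median 0.15). In senescent cells 46 of them were lower than in proliferating cells (median -0.95), against 19.8% over all genes. For ribosome biogenesis the medians against proliferating cells were 0.49 in immortalized and -0.82 in senescent cells. Ribosomal protein genes took 8.15 ± 1.1% of all TPM in immortalized and 4.07 ± 0.95% in senescent libraries (SD, n = 3). The study itself measured less protein synthesis, by puromycin incorporation, in immortalized cells than in the other cell-states. RNA levels do not measure that rate. Rpl3 was at 1656, 1791 and 1853 TPM in the immortalized libraries, against 842, 639 and 649 TPM in the senescent libraries. Rps12 was at 2752, 2222 and 2993 TPM in the immortalized libraries, against 1777, 853 and 741 TPM in the senescent libraries. Senescent replicate 1 was the highest senescent library in both genes. Dkc1, the pseudouridine synthase dyskerin of ribosome biogenesis and telomerase, rose by 2.42 and Tcof1 by 2.21 (log2). Of 17 telomere and telomerase genes 10 were higher and none lower, with Terf1, a telomere-binding protein, at 13.1, 20.4 and 14.5 TPM in immortalized and 5.40, 3.75 and 2.84 TPM in senescent libraries. ATF4 targets of the integrated stress response, largely genes of amino acid synthesis and transport, were higher in 26 of 30 cases and lower in 1, Cebpb (-0.67). Psat1, an enzyme of serine synthesis, was at 268, 522 and 324 TPM in the immortalized libraries, against 45.7, 26.3 and 29.8 TPM in the senescent libraries. Cth, an enzyme of cysteine synthesis, was at 45.9, 128 and 57.6 TPM in the immortalized libraries, against 12.4, 4.30 and 4.68 TPM in the senescent libraries. Proliferating libraries averaged 285 ± 66.6 TPM of Psat1 and 45.4 ± 11.4 TPM of Cth (SD, n = 3), near immortalized replicates 1 and 3 and under immortalized replicate 2. Over the list the median was 0.06 for immortalized minus proliferating cells and -1.41 for senescent minus proliferating cells.

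**Figure D3:**
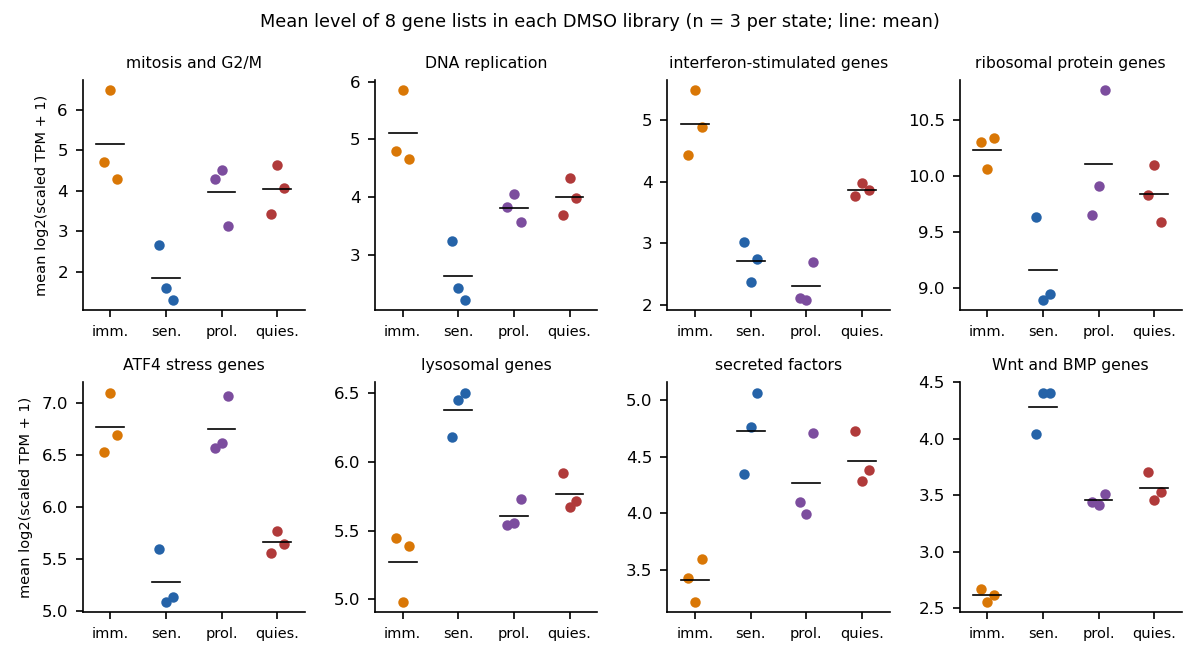
Mean log2(scaled TPM + 1) of 8 gene lists in each DMSO library of immortalized, senescent, proliferating and quiescent cells, with a point for each of 3 libraries and a line at the mean. Immortalized and senescent points do not overlap in any of the 8 lists, and proliferating cells lie near immortalized cells for ATF4 stress genes and near senescent cells for interferon-stimulated genes.

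Of 28 glycolysis and hypoxia-response genes 12 were higher and 3 lower (6 lower without senescent replicate 1). Of 45 nuclear genes of oxidative phosphorylation 14 were higher, 1 was lower and 30 were not called, against 29.3% higher over all genes. The count of 14 was 24 without senescent replicate 1, 8 without senescent replicate 2, 5 without senescent replicate 3, 9 without immortalized replicate 1 and 3 with the per-1000000 scaling undone, a setting under which 7 glycolysis genes were higher. Slc16a3, a lactate exporter, had the largest rise of the glycolysis list, with 107, 184 and 103 TPM in the immortalized libraries, against 17.6, 12.3 and 10.8 TPM in the senescent libraries. Pfkfb4 and Eno2 were lower (-1.59 and -1.42). Cycs, encoding cytochrome c, and Atp5b were higher by 0.99 and 0.82. In cholesterol and fatty acid synthesis 16 of 30 were higher and 2 lower, with Acaca, the first enzyme of fatty acid synthesis, at 201, 313 and 209 TPM in immortalized and 74.3, 89.3 and 98.8 TPM in senescent libraries. In steroid and retinoid metabolism 19 of 26 were lower and 3 higher (median -1.58). Stra6, a retinol transporter, was at 0.0582, 0 and 0.172 TPM in the immortalized libraries, against 8.26, 36.7 and 46.9 TPM in the senescent libraries. It was under 0.2 TPM in each immortalized library. Fabp5, a fatty acid carrier, rose with 212, 194 and 138 TPM in immortalized and 26.9, 13.9 and 7.56 TPM in senescent libraries. NRF2 and detoxification genes gave 19 lower and 4 higher of 33. Gpx3, a secreted glutathione peroxidase, was at 24.02, 3.09 and 24.3 TPM in the immortalized libraries, against 278, 1178 and 1305 TPM in the senescent libraries. Gsr, which regenerates glutathione, went the other way with 371, 399.6 and 439 TPM in the immortalized libraries, against 139, 157 and 163 TPM in the senescent libraries. The higher members numbered 1 without senescent replicate 2 and 2 without immortalized replicate 3.

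Lysosomal genes were lower in immortalized fibroblasts with few exceptions. Of 49 tested, 45 were lower in immortalized cells and none was higher, with a median of -1.005 and against 30.8% lower over all genes. Ctsd was at 574, 322 and 570.0 TPM in the immortalized libraries, against 1724, 2518 and 2678 TPM in the senescent libraries. Ctsf, another cathepsin, was at 4.25, 0.751 and 3.51 TPM in the immortalized libraries, against 17.9, 51.2 and 67.7 TPM in the senescent libraries. Glb1, the lysosomal β-galactosidase behind the senescence stain, was at 46.9, 27.2 and 45.2 TPM in the immortalized libraries, against 65.9, 91.7 and 95.7 TPM in the senescent libraries. The groups did not overlap in these 3 genes, and the differences were -2.18, -3.44 and -1.005 (log2), with an adjusted p of 9.1e-06 for Glb1 (limma). The list's median was -0.24 for immortalized minus proliferating cells and 0.82 for senescent minus proliferating cells. Autophagy genes were lower in 22 of 42 cases and higher in 4 (median -0.47). Calcoco1, an autophagy receptor for the endoplasmic reticulum, and Wipi1, a phosphoinositide-binding factor, fell (-1.77 and -1.34), and Atg4d, a protease of the ATG8 proteins, rose (1.46). Proteasome subunits and assembly factors were higher in 25 of 43 cases and lower in none, with a small median of 0.47 and a range of -0.22 to 1.05. The assembly chaperone genes Psmg1 and Psmg4 led (1.05 and 0.97). With the per-1000000 scaling of each library undone, the median of all genes was -0.15 and that of the proteasome list 0.31.

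Chaperones moved in both directions, and the genes linked to the aggresome did not share a direction. Of 56 chaperones and cochaperones 29 were higher and 10 lower (median 0.41), with 6 lower without senescent replicate 3 or without immortalized replicate 2. Hsp90ab1, the constitutive HSP90, was at 2105, 2484 and 2554 TPM in the immortalized libraries, against 1425, 1205 and 1484 TPM in the senescent libraries. Its cochaperone gene Fkbp4 was at 132, 180.4 and 149.6 TPM in the immortalized libraries, against 52.7, 39.5 and 38.1 TPM in the senescent libraries. Neither gene overlapped between the groups. The small heat shock protein genes Hspb7 and Cryab fell, with Hspb7 at 4.98, 2.57 and 3.36 TPM in the immortalized libraries, against 61.1, 80.3 and 75.1 TPM in the senescent libraries, while the related Hspb6 rose (1.72). Of 29 aggresome-linked genes, which cover the deacetylase and segregase, cage, motor and kinase components named for this pathway, 6 were higher, 9 lower and 14 not called. Over all genes 29.3% were higher and 30.8% lower, so the share lower was near that of all genes and the share higher under it. The list's median of -0.03 turned to 0.002 without senescent replicate 2. Sqstm1, the ubiquitin receptor p62, was at 662, 545 and 918 TPM in the immortalized libraries, against 1174, 1364 and 1972 TPM in the senescent libraries. Vim, encoding vimentin, was the most abundant gene in both groups, at 15473, 13666 and 12711 TPM in the immortalized libraries, against 25870.2, 25968 and 21174 TPM in the senescent libraries. Its difference was -0.72 ± 0.19 (log2, SE, adjusted p = 0.0031, limma), and adjusted p was 0.078 when the 6 libraries were fitted alone. Bag3, a cochaperone that hands clients to aggresomes, was lower (-1.33), and Mapk12, Mapk14 (p38γ and p38α) and Tubg1 were higher (1.29, 0.50 and 0.98). Hdac6, which carries ubiquitinated cargo to dynein, had 11.6, 10.2 and 11.2 TPM in immortalized and 9.75, 13.1 and 13.1 TPM in senescent libraries. The groups overlapped, and the difference was -0.03 ± 0.11 (log2, SE) with an adjusted p of 0.83. Vcp and Map3k7 (TAK1) also did not pass the test (-0.15 and 0.02, adjusted p = 0.17 and 0.89). Vcp was called lower with the per-1000000 scaling undone (-0.32, adjusted p = 0.046) and with array weights (-0.15, adjusted p = 0.023).

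The main list counts were also taken without senescent replicate 1 and immortalized replicate 2. Interferon-stimulated genes were then higher in 37 of the 40 genes that passed the filter and ribosomal protein genes in 50 of 50. Lysosomal genes were lower in 44 of 49 cases, secreted factors in 28 of 49 and p53 targets in 23 of 42.

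**Figure D4:**
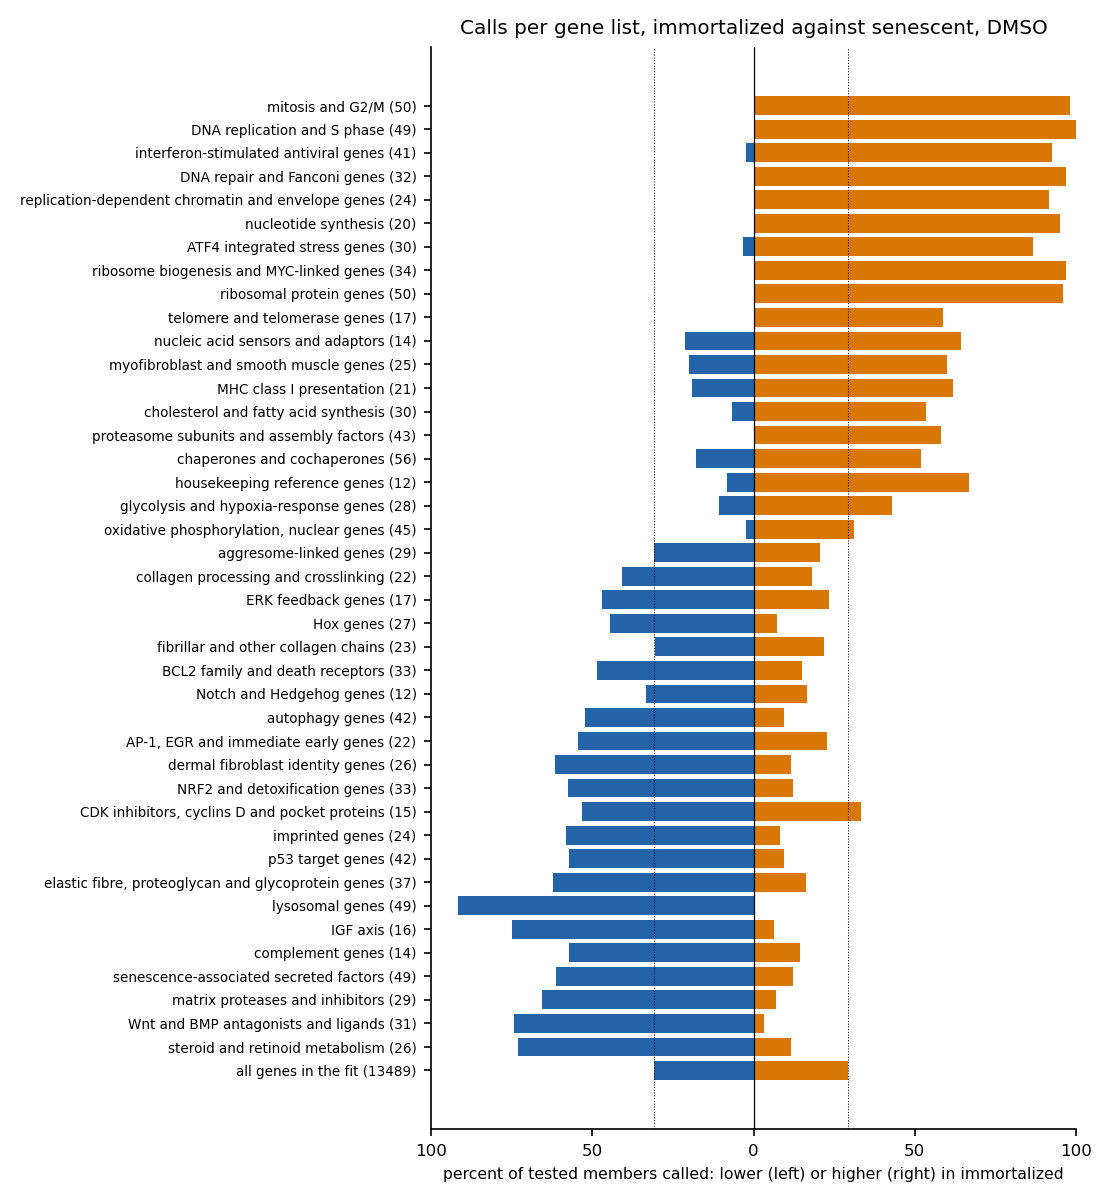
Percent of the tested members of each gene list (number in parentheses) called higher (orange, right) or lower (blue, left) in immortalized than in senescent cells, with all 13489 genes in the bottom row and dotted lines at their 29.3% and 30.8%. Lists of 12 or more tested genes are ordered by their median, from mitosis at 3.42 to steroid and retinoid metabolism at -1.58.

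The same contrast was measured in separate libraries under MG132. There 4395 genes (32.6%) were higher and 4721 (35%) lower in immortalized than in senescent cells, 67.6% in all. That split rests on the scaling, with 1722 higher and 8360 lower on TPM as deposited. Of the 3952 genes higher under DMSO, 2502 were also higher under MG132 and 382 were lower, and of the 4153 lower under DMSO, 2688 were again lower and 422 were higher. Among the 905 genes past 2 log2 units, 771 kept their direction with a call and 30 were called the other way. Of the mitosis and replication lists 47 of 50 and 47 of 49 genes were higher under MG132 too, and of the ribosomal protein genes 50 of 50. Lysosomal genes were lower in 30 of 49 cases and higher in 4. Immediate early genes had 19 of 22 higher and 1 lower under MG132, against 5 higher and 12 lower under DMSO. Among secreted factors 20 of 49 were higher and 15 lower there, against 6 and 30. The medians under MG132 were 1.82 for immediate early genes and 0.24 for secreted factors. List counts under MG132 were taken with the main scaling alone, so how far they rest on it was not tested. Its size factors were 0.62 to 0.69 in immortalized and 1.16 to 1.185 in senescent MG132 libraries. Pmaip1, which was lower under DMSO, was at 289.9, 229 and 269 TPM in immortalized and 98.8, 93.4 and 101 TPM in senescent libraries under MG132. Dio3 was at 0.66, 0.414 and 0.565 TPM in immortalized and 1.85, 0.969 and 1.202 TPM in senescent MG132 libraries, so the senescent level was far under that of the senescent DMSO libraries. The difference between both contrasts passed the test for 5188 genes (38.5%), of which 2542 (18.8%) had a more positive difference under MG132 and 2646 (19.6%) a more negative one, against 1047 and 6580 on TPM as deposited.

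Chromosome 10 genes stood apart by position, a pattern chosen after the values were seen. Of 659 tested genes on chromosome 10, 276 (41.9%) were higher and 157 (23.8%) lower in immortalized cells, while on the other chromosomes 25.6 to 31.5% were higher. For the 9425 genes averaging 5 TPM or more, the median log2 difference from proliferating DMSO cells was taken per chromosome and library, minus that of the other autosomes. For chromosome 10 it was 0.37, 0.59 and 0.38 in the immortalized libraries, against 0.26, 0.10 and 0.11 in the senescent libraries. Every other chromosome lay between -0.11 and 0.07 in the immortalized and between -0.09 and 0.06 in the senescent libraries. Under MG132 the value was 0.46 to 0.54 in immortalized and -0.01 to 0.02 in senescent libraries. It was 0.11 to 0.18 in proliferating MG132 libraries, 0.00 to 0.14 in quiescent DMSO libraries and 0.02 to 0.22 in quiescent MG132 libraries. Along chromosome 10, each of 7 windows of about 60 genes was raised in all 3 immortalized libraries (0.23 to 0.77). Senescent replicate 1 was raised in each of the 7 as well (0.19 to 0.36). In window 6 it was at 0.2545, above immortalized replicate 1 at 0.2348. Senescent replicates 2 and 3 lay between -0.01 and 0.24. In none of 139 windows of other chromosomes were all 3 immortalized libraries above 0.2. DNA was not measured, and the cause was not tested. The lists above held few of these genes, with at most 5 in a list (p53 targets), among them Mdm2 and Perp, which were lower. Prim1, Atp5b and Rps12 also lie on chromosome 10.

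**Figure D5:**
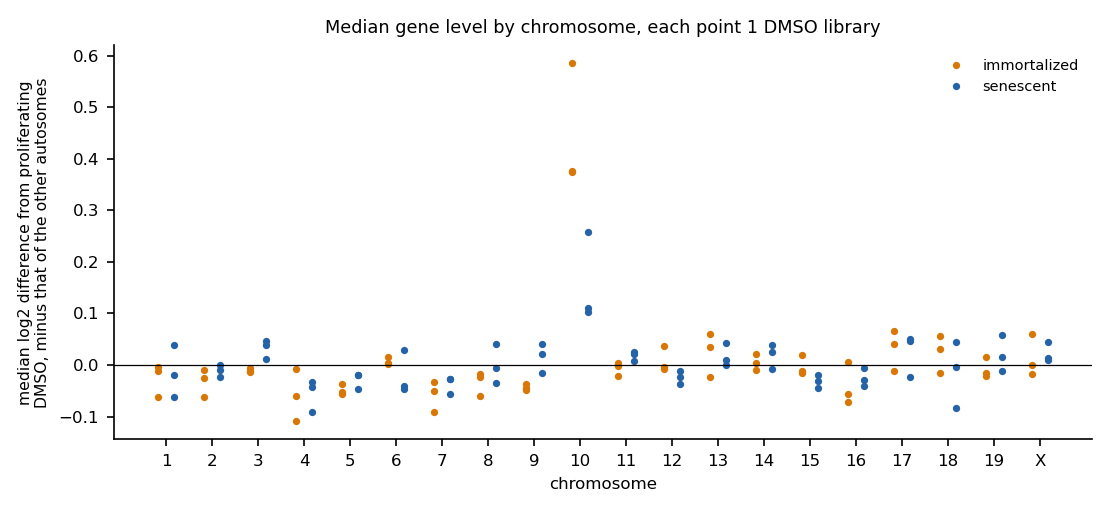
Median log2 difference from proliferating DMSO cells, minus that of the other autosomes, for the genes of each chromosome (x axis), with 1 point per immortalized (3) and senescent (3) DMSO library. Chromosome 10 lies at 0.37 to 0.59 in immortalized and 0.10 to 0.26 in senescent libraries, and all other chromosomes lie within -0.11 and 0.07.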

How the data were processed

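Poly(A) RNA libraries of 24 samples, 3 for each of 8 combinations of cell-state and treatment, were read in a table of gene-level TPM that the authors deposited. Their methods describe trimming with Cutadapt, mapping with kallisto to mouse transcripts of GRCm38 with ERCC sequences, spike-in normalization with RUVg, division by gene length and scaling to a fixed sum. The submitters' processing notes list other tools (HISAT2, StringTie, edgeR, with cutadapt and FastQC), and the sources used here do not settle which of these gave the table or whether counting used strand. Every library sums to 1000000, so TPM holds no depth and no counting interval is given.

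Median-of-ratios size factors (0.62 to 1.27) scaled TPM, and the log2(value + 1) values were fitted in limma 3.58.1 (R 4.3.3) with a mean-variance trend, in a single model of the 8 groups (16 residual degrees of freedom, no replicate term). Genes needed at least 1 TPM in 3 libraries. P-values were adjusted by Benjamini-Hochberg within each contrast and called under 0.05. TPM of genes is given as deposited. Positions came from GENCODE M21 (GRCm38) for 19875 gene IDs and promoters from RefSeq.

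Members and the 50 gene lists were chosen with earlier results of these data known. Of 1353 listed symbols 35 were not matched and are not analysed here. Named genes are the 12 largest rises and falls among called genes without overlap and with a mean of at least 10 TPM in 1 group, up to 2 called genes each way per list with a mean of at least 5 TPM, and markers and pathway genes of the study. Il6, Mdm2, Pdgfra and Thy1 were added after their values were seen, as were chromosome medians and the families of the closing section. The fit was also run on simulated data in which few genes changed, unlike the 60.1% called here, so this did not test the scaling. Alternatives were upper-quartile factors, unscaled deposited TPM, undoing the final scaling to 1000000 from the step size of low values, pseudocounts of 0.1 and 5, no filter or 5 TPM, 6 or 12 libraries, a replicate block, no trend, array weights and each library left out. Leaving out 2 libraries together was chosen after seeing the data. Figures used matplotlib 3.10.9 in Python 3.11.15.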

Additional observations from a re-analysis of the deposited data

Results flagged for a closer look

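In 3 of the 24 leading genes the difference between immortalized and senescent fibroblasts itself differed between DMSO and MG132 (limma interaction, adjusted p under 0.05, against 38.5% of all genes). For Prg4 the log2 difference was 5.21 ± 0.94 (SE) less negative under MG132 (adjusted p = 2.1e-04). Its MG132 libraries held 592, 199 and 439.9 TPM in immortalized and 4239.9, 3609 and 5087 TPM in senescent cells, so immortalized levels were far above those under DMSO, and the senescent MG132 range lay inside that of the senescent DMSO libraries. For Prl2c3 the shift was 3.06 ± 0.94 (adjusted p = 0.014), with 125, 45.8 and 139 TPM in immortalized and 1561, 1765 and 1969 TPM in senescent MG132 libraries. For Igfbp5 it was 2.44 ± 0.65 (adjusted p = 0.0057), with 1.67, 0.546 and 1.13 TPM and 148, 99.7 and 133 TPM. Of all 166 genes named by rule, 65 had a difference that passed this test. All 3 genes were lower in immortalized cells under both treatments. The leading genes were chosen by their DMSO difference, which the interaction also uses, so a smaller difference under MG132 is favoured by the choice. The shifts are given with the main scaling alone, and the counts of the interaction moved with scaling.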

How the results depend on the processing

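The direction counts for DMSO stayed within 1.5 times of 3952 higher and 4153 lower under every alternative run. Leaving out each library in turn gave 3452 to 4074 higher and 3575 to 4196 lower. Fitting the 6 libraries alone gave 3208 and 3018, TPM with the scaling to 1000000 undone 3000 and 4817, and no filter 3988 and 4751. With a replicate block, 3942 and 4166 genes were called. Deviations of the same-numbered immortalized and senescent libraries correlated at -0.21, -0.34 and 0.54 for numbers 1, 2 and 3. With 3 libraries a group and 1 on each side lying off its group, these values cannot show whether the numbers pair the samples. The split moved with scaling, since the median of all genes was -0.08 with deposited TPM and -0.15 with that scaling undone. Under MG132 it moved far more. Deposited TPM gave 1722 higher and 8360 lower in place of 4395 and 4721, and undoing the scaling gave 1843 and 7908. For the difference of both contrasts, 2542 higher and 2646 lower became 1047 and 6580 with deposited TPM and 1235 and 5451 with the scaling undone, and array weights gave 4008 higher. Array weights also gave 39 of 43 proteasome genes higher under DMSO in place of 25. The median of the collagen processing list turned to 0.05 with a filter of 5 TPM, 0.07 with the 6 libraries alone and 0.04 with the 12 DMSO libraries. Of 162 called named genes 14 lost their call under at least 1 alternative, none turned its direction, and none of the 24 leading genes was lost. Vcp and Rb1 gained a call, both with array weights and Vcp also with the scaling undone. Without depth, weakly expressed genes cannot be given a counting error.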

Other observations

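Families that fall outside the lists above were looked at after their values were seen, and are given as values. Replication-dependent histone genes, whose mRNAs end in a stem-loop and normally lack a poly(A) tail, went against the other S phase genes. Of 30 tested, none was higher and 20 were lower in immortalized fibroblasts, with a median of -1.63 and against 30.8% lower over all genes. The libraries were made from poly(A) RNA, so these values cover polyadenylated transcripts and do not measure the total RNA of these genes. The 47 genes in the table summed to 81.4, 53.2 and 62.1 TPM in immortalized libraries, against 641, 794 and 779 TPM in senescent libraries. They summed to 184, 202 and 193 TPM in proliferating and 522, 459 and 396 TPM in quiescent libraries, so senescent and quiescent libraries lay above proliferating ones. H2bc4 was at 29.6, 12.2 and 25.9 TPM in the immortalized libraries, against 307, 313 and 326 TPM in the senescent libraries. The linker histone gene H1f2 was at 16.3, 14.7 and 13.7 TPM in the immortalized libraries, against 111, 110.0 and 82.1 TPM in the senescent libraries. Copies of these genes are similar, so reads may be divided among them.

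Genes of the cornified envelope of skin were lower in immortalized than in senescent fibroblasts. Of 15 tested 9 were lower and none higher, against 30.8% and 29.3% over all genes. Ivl, encoding involucrin, was at 0.66, 0 and 0.586 TPM in the immortalized libraries, against 12.4, 87.6 and 133 TPM in the senescent libraries. Lce1g, another envelope gene, was at 0.686, 0.179 and 1.52 TPM in the immortalized libraries, against 25.7, 106 and 110.0 TPM in the senescent libraries. The 24 genes in the table summed to 6.18, 1.04 and 11.4 TPM in immortalized and 103, 382 and 476 TPM in senescent libraries. They summed to 41.0, 29.2 and 53.6 TPM in proliferating and 16.7, 7.33 and 7.75 TPM in quiescent libraries. A low level was thus not particular to immortalized cells. Krt14, a keratin of basal keratinocytes, was at 0 TPM in all immortalized libraries and at most 0.23 TPM in senescent ones. Of 9 granzyme and mast cell protease genes 7 were lower and none higher, and the 3 tested proliferin genes were all lower. The granzyme and mast cell protease genes summed to 5.62, 1.46 and 8.73 TPM in immortalized and 105, 407 and 509 TPM in senescent libraries. Proliferating libraries held 161, 154 and 221 TPM of them and quiescent libraries 361, 128 and 158 TPM. Proliferins summed to 75.1, 24.5 and 138 TPM in immortalized and 2005, 4344 and 10652 TPM in senescent libraries. Among the Slfn genes, which restrain growth and viruses, 2 of 4 were higher, against 29.3% over all genes. Slfn9 was at 10.1, 50.6 and 12.7 TPM in immortalized and 1.94, 0.456 and 0.342 TPM in senescent libraries.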
